A study of Mus musculus with 11 samples.

Results

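The casein genes of the mouse are 5: Csn1s1 (alpha-s1-casein), Csn2 (beta-casein), Csn1s2a and Csn1s2b (the alpha-s2-like caseins) and Csn3 (kappa-casein). They were taken by name from 22196 genes measured in 11 RNA-seq libraries of the inguinal mammary gland, and all 5 passed the filter on low counts. The 6 Knockout libraries came from mice labelled Tsc1-fl/fl; Adipoq-Cre-Tg/+, in which the Cre transgene deletes the floxed Tsc1 gene (an inhibitor of the growth kinase mTORC1) in adipocytes. The 5 Wild-Type libraries came from mice labelled Tsc1-fl/fl; Adipoq-Cre-+/+, which carried the same floxed alleles without the transgene. All mice ate normal chow, and the glands were collected 16 days after delivery. The labels also mention access to milk. An age of PND16.5 (postnatal day) is given as well, and the labels do not say whether that is the age of the mouse or counts the days from the birth of its litter. They do not state outright that the mice were lactating, nor which cells beside adipocytes the glands held.

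Caseins are the main proteins of milk and are made by the alveolar epithelial cells of the lactating gland, not by the adipocytes in which the transgene is active. The alpha and beta caseins are phosphorylated and bind calcium phosphate, and kappa-casein lies on the surface of the casein micelle and keeps it in suspension. Prolactin, acting through its receptor, the kinase Jak2 and the transcription factor Stat5, drives their transcription in the lactating gland together with glucocorticoid signalling.

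The members lie in one cluster on chromosome 5, chr5:87666208-87932665 (GRCm38, GENCODE M21), which spans 266 kb. In order along the chromosome, Csn1s1 lies at chr5:87666208-87682578 on the plus strand and Csn2 at chr5:87692624-87699630 on the minus strand. Csn1s2a lies at chr5:87774567-87788797, Csn1s2b at chr5:87808082-87824426 and Csn3 at chr5:87925579-87932665, all on the plus strand. The listed length of each casein transcript in the tables equals its annotated coding length, so every casein value below counts reads in coding sequence only. No word of 31 bases in the listed casein transcripts occurs in an annotated transcript of another gene, so reads of that length would not be split between a casein gene and a gene elsewhere.

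Most coding exons of the caseins are short, but 1 long exon holds most of the coding sequence of Csn2 (525 of 696 bases) and of Csn3 (459 of 546 bases). The longest coding exon has 143 bases in Csn1s1, 126 in Csn1s2a and 111 in Csn1s2b. Csn1s1 has 942 coding bases in 32 coding exons with a median of 24 bases, and 14 of these exons are 18 bases long. In Csn2 there are 7 coding exons, in Csn1s2a 12, in Csn1s2b 11 and in Csn3 3, and every one of them has a number of coding bases divisible by 3, as do 30 of the 32 in Csn1s1. The 14 exons of 18 bases follow each other as exons 14 to 27 at chr5:87675483-87677137 and hold 26.8% of the coding sequence. They are repeats of one another, with 12 different sequences and a pairwise identity from 61.1% to 100% with a median of 77.8%. Of these, 4 are printed here to show how the repeat varies, on the plus strand of GRCm38, with capitals where a base differs from the most frequent base at that position over the 14 exons; exon 27 (chr5:87677120-87677137) has no such difference, exon 26 (chr5:87676993-87677010) has 1, exon 15 (chr5:87675611-87675628) has 3 and its sequence occurs 3 times, and exon 22 (chr5:87676487-87676504) has 5.
Csn1s1 exon 27: caagcttccctggcacag
Csn1s1 exon 26: caagcttTcctggcacag
Csn1s1 exon 15: caagcttccctgTTTcag
Csn1s1 exon 22: caaCTtCTcctggcCcag

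The transcripts with a complete coding sequence that the tables list for a casein gene differ by whole exons, by 3 to 57 bases at an exon's edge or, in Csn1s2b-202, by 231 bases over several exons and another last coding exon. The stretches below are the ones that set apart the less used transcripts with at least 1% of a gene's reads, which are described with their shares of reads further on. Each is printed 5′ to 3′ in the strand of the gene with the differing bases in capitals and up to 12 coding bases on either side, from the GENCODE transcripts of GRCm38. The capitals are at chr5:87680820-87680876 for Csn1s1 (57 bases, the start of exon 32), chr5:87696070-87696072 for Csn2 (3 bases, the start of exon 6) and chr5:87778172-87778174 for Csn1s2a (3 bases, the start of exon 5). For Csn1s2b they are at chr5:87815094-87815126 (33 bases, the whole of exon 6) and chr5:87819096-87819110 (15 bases, the end of exon 9).
Csn1s1, absent from Csn1s1-205: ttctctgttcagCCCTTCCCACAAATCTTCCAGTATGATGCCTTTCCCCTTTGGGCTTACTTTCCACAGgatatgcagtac
Csn2, absent from Csn2-201: catatcaatgagCAGaaacttcagaag
Csn1s2a, absent from Csn1s2a-203: atctacccaggaAAGtctaagctggac
Csn1s2b, absent from Csn1s2b-204: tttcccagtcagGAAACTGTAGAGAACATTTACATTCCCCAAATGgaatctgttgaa
Csn1s2b, absent from Csn1s2b-203: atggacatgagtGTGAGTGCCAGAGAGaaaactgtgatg

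Promoter sequences of Csn1s1, Csn2 and Csn1s2a, 3 of the 5 members, were matched in RefSeq's GRCm38.p6 annotation. They were searched on both strands, from 250 bases before to 50 bases after the RefSeq start, for TTCNNNGAA, the palindrome that STAT proteins are known to bind, and for TTCNNNNGAA, its form with a longer spacer. Each of the 3 promoters held TTCNNNGAA, against 8.30% of 32851 promoters of the same length. Csn2 also held TTCNNNNGAA, which 6.95% of the promoters did. None of the 3 held the exact letters TATAAA, a form of the TATA box that 13.6% of the promoters held. Other forms were not searched for, so this does not show that these promoters lack a TATA box. Shortly before the RefSeq start, Csn2 held tatatata and Csn1s1 held tttaaatag, and their function was not tested. The matches to the STAT palindromes are printed in the strand of the gene, with the matched letters in capitals, to show how alike they are. They lie 100 bases before the start of Csn1s1 (window chr5:87666098-87666126, plus strand), 93 and 140 bases before the RefSeq start of Csn2 (windows chr5:87699500-87699528 and chr5:87699546-87699575, minus strand) and 20 bases after the RefSeq start of Csn1s2a (window chr5:87774460-87774488, plus strand). GENCODE places the start of Csn1s2a farther downstream, 97 bases after the match, and the outermost start of Csn2 upstream of both matches. A match of letters is a description of the sequence and was not tested for binding.
Csn1s1, 100 bases before the start: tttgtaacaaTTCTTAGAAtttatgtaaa
Csn2, 93 bases before the start: tcacgtagacTTCTTGGAAttgaagggac
Csn2, 140 bases before the start: accctagaatTTCTTGGGAAagacaataga
Csn1s2a, 20 bases after the start: ttatagtgctTTCTTAGAAttacaatgac

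The libraries held between 25817975 and 37894237 estimated reads. The targeted gene Tsc1 was not called in whole gland RNA, where transcripts of cells without the transgene are measured too: its level, in CPM (reads scaled to a common library total) after TMM scaling, was 8.31 to 11.9 over the Knockout libraries and 9.55 to 12.2 over the Wild-Type libraries, a log2 difference of -0.09 ± 0.11 (SE; adjusted p = 0.772, edgeR), which turned to 0.10 with library totals and 0.04 in TPM and was -0.16 with offsets for average transcript length and -0.15 on the authors' normalized values. With 1 library left out it ran from -0.13 (without Knockout 2) to -0.03 (without Knockout 1), and was -0.06 without Knockout 3, -0.04 without Wild-Type 1 and -0.06 without Wild-Type 4. Over all 12716 genes tested, edgeR's quasi-likelihood test with Benjamini-Hochberg adjustment called 7 genes at an adjusted p of 0.05, which is 0.055% of the genes, 6 of them higher and 1 lower in Knockout. Markers of luminal and alveolar epithelium were above the filter in all 8 of 8 cases, and those of adipocytes likewise in 8 of 8. Myh4, a fast skeletal muscle myosin, was at 1148 CPM in Knockout 1 and at 0 to 76.5 CPM in the other libraries.

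The caseins took about as many reads as all other genes together. In the Wild-Type libraries 1 to 5, the casein genes held 50.05%, 50.7%, 53.1%, 48.2% and 48.1% of the estimated reads in genes. In Knockout the lowest share was 43.3%, the median 47.9% and the highest 50.8%. The lowest 3 values of all 11 were from Knockout libraries 1, 2 and 6, the highest was from Wild-Type 3, and the ranges overlapped. The mean ± SD was 47.5% ± 2.80 over the 6 Knockout libraries and 50.01% ± 2.08 over the 5 Wild-Type libraries. The means differed by -2.47 percentage points, for which no test was made because it is a sum over members. Without Knockout 1 the difference was -1.62 and without Wild-Type 3 it was -1.69 percentage points. In TPM, a transcript abundance per effective length that sums to the same total in every library, the mean casein share was 47.8% ± 1.92 for Knockout (SD, n = 6) against 49.3% ± 1.51 for Wild-Type (SD, n = 5).

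**Figure D1:**
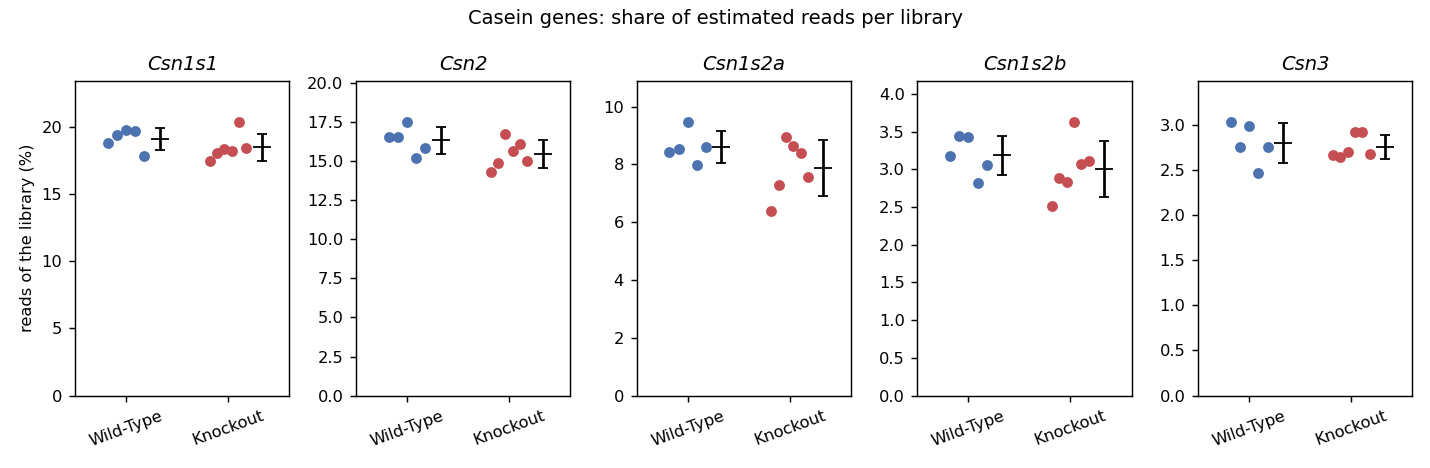
Share of a library's estimated reads (%, linear axis from 0) held by each casein gene, 1 panel per gene, 1 point per library, with blue points for the 5 Wild-Type and red points for the 6 Knockout libraries. Bars give the mean and SD of each group; in each panel the ranges of the 2 groups overlap.

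By reads, Csn1s1 was the most abundant of the 22196 genes and Csn2 the next, with Csn1s2a, Csn1s2b and Csn3 at ranks 4, 6 and 7. Over the 11 libraries Csn1s1 held 18.8% ± 0.925 (SD) of the reads, Csn2 15.8% ± 0.953, Csn1s2a 8.20% ± 0.852, Csn1s2b 3.09% ± 0.323 and Csn3 2.77% ± 0.171. The other genes above Csn3 in that order were Trf (serotransferrin, an iron carrier of mouse milk) at 8.84% ± 1.10 and Wap (whey acidic protein) at 8.13% ± 0.815. Reads grow with transcript length, so the order of the members is given next per length, and the shares of reads further on compare each gene with itself between libraries.

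Per effective length, in TPM, beta-casein had the highest level of the 5. Csn2 was at 139105 ± 5133 TPM (SD over 11 libraries), Csn1s2a at 117459 ± 9419, Csn1s1 at 108179 ± 5107, Csn1s2b at 78803 ± 6063 and Csn3 at 41042 ± 2030. Wap alone stood above Csn2, at 237857 ± 17688 TPM. The order of neighbours held in 11 of 11 libraries, except that Csn1s2a was above Csn1s1 in 10 of 11, with a ratio of their means of 1.09. The place of Csn1s1 depended on the length used. With reads per listed length, scaled to the library total, Csn1s1 (199702 ± 9851) was above Csn1s2a (147980 ± 15366) in 11 of 11 libraries, and Csn2 remained highest at 228064 ± 13723. The effective length that TPM divides by lay between 595 and 612 bases for Csn1s1-201 of 942 listed bases, between 235 and 252 for Csn1s2a-201 of 555 and between 134 and 145 for Csn1s2b-201 of 432. The shorter coding sequences are thus raised more in TPM.

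Both alpha-s1- and beta-casein, the calcium-binding caseins with the most reads, had somewhat lower means in Knockout, and neither was called. Csn1s1 held 18.8%, 19.4%, 19.8%, 19.7% and 17.8% of the reads in Wild-Type 1 to 5. In Knockout its lowest share was 17.4% (Knockout 1), its median 18.3% and its highest 20.4% (Knockout 5). Knockout 5 thus had the highest Csn1s1 share of all libraries, while 1 Knockout library was below every Wild-Type one. After TMM scaling, which sets the typical gene equal between libraries, Csn1s1 averaged 174872 ± 21349 CPM (SD) over the 6 Knockout libraries against 206185 ± 21973 CPM over the 5 Wild-Type libraries. The log2 difference was -0.24 ± 0.12 (SE; edgeR, adjusted p = 0.426 over the whole table).

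Csn2 held 16.6%, 16.53%, 17.5%, 15.2% and 15.8% of the reads in Wild-Type 1 to 5. In Knockout it had a lowest share of 14.3% (Knockout 1), a median of 15.3% and a highest of 16.7% (Knockout 3). Of the Knockout libraries 3 were below every Wild-Type library, and only Wild-Type 3 was above every Knockout library. On the TMM scale Csn2 averaged 146357 ± 19965 CPM (SD) over the Knockout libraries against 177046 ± 25610 CPM over the Wild-Type libraries. Its log2 difference was -0.27 ± 0.13 (SE; adjusted p = 0.415, edgeR).

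Csn1s2a, one of the alpha-s2-like caseins, had the largest log2 difference of the 5 genes, while in percentage points of reads Csn2 differed more (-0.894 against -0.734). Its shares were 8.44%, 8.54%, 9.47%, 7.98% and 8.59% in Wild-Type 1 to 5. The Knockout libraries ran from 6.40% (Knockout 1) over a median of 7.98% to 8.95% (Knockout 3). Again 3 Knockout libraries were below every Wild-Type library, and the ranges overlapped. In CPM after TMM scaling, the mean of the Knockout libraries was 74993 ± 15039 (SD) and that of the Wild-Type libraries 93284 ± 13981. The fitted log2 difference was -0.31 ± 0.16 (SE; adjusted p = 0.432, edgeR).

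Csn1s2b, its neighbour, held 3.18%, 3.44%, 3.43%, 2.83% and 3.05% of the reads in Wild-Type 1 to 5. In Knockout its lowest share was 2.52% (Knockout 1), its median 2.98% and its highest 3.63% (Knockout 4). The highest share of all libraries was thus a Knockout one. The TMM-scaled mean was 28632 ± 5598 CPM (SD) for Knockout against 34585 ± 5690 CPM for Wild-Type, with a log2 difference of -0.27 ± 0.15 (SE; adjusted p = 0.494, edgeR).

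Csn3, which encodes the stabilising kappa-casein, had the smallest difference of the 5 in share of reads. On the log2 scale its difference was also the smallest with all libraries, but that of Csn1s1 was smaller without Knockout 4 (-0.26 against -0.27) and without Wild-Type 4 (-0.28 against -0.31). It held 3.03%, 2.76%, 2.98%, 2.47% and 2.75% of the reads in Wild-Type 1 to 5. Its Knockout shares were between 2.64% (Knockout 2) and 2.92% (Knockout 5) with a median of 2.68%. No Knockout library was below the lowest Wild-Type library, which was Wild-Type 4. In TMM-scaled CPM its mean was 26050 ± 3214 (SD) for Knockout against 30386 ± 5183 for Wild-Type, with a log2 difference of -0.22 ± 0.13 (SE; adjusted p = 0.510, edgeR).

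Of the 5 casein genes, 0 were called by edgeR, 0 had an unadjusted p under 0.05 (the smallest was 0.0552, for Csn2), and 0 were called by DESeq2's Wald test or by limma on log2(TPM + 1). The background shares over all genes were 0.055% for edgeR's calls, 12.4% for an unadjusted p under 0.05, 0.957% for DESeq2 and 0.0212% for limma. On the TMM scale 0 of the 5 had CPM ranges that did not overlap, against 1.32% of all genes tested (168 genes). The 5 fitted differences were all negative, with a median of -0.27 against -0.01 over all genes, of which 51.7% were negative. The members share their libraries and move together in them, so their common sign is not 5 separate observations. The variation between libraries that edgeR fitted for the casein genes, as a biological coefficient of variation, was between 14.3% and 18.8%, against 24.1% for the common value over all genes. Set among the single genes tested, these values lay between percentile 30.9 (Csn1s1) and percentile 55.05 (Csn1s2b), so the caseins were not set apart by their variation.

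How much lower the caseins were depended on how the libraries were put on one scale. TMM factors were 0.970 to 1.22 for the Knockout libraries and 0.842 to 1.09 for the Wild-Type libraries, and moved the caseins and all other genes alike. With library totals in place of TMM factors, the log2 differences were -0.05 for Csn1s1, -0.08 for Csn2, -0.13 for Csn1s2a, -0.08 for Csn1s2b and -0.02 for Csn3, and the median over all genes was 0.18. In log2(TPM + 1), tested with limma, they were -0.01, -0.04, -0.10, -0.05 and 0.01 in the same order, so that Csn3 changed sign, and the median over all genes was 0.17. Relative to the median gene, each casein was thus lower in Knockout under each of these scalings. As a part of the library, the differences of the single genes were at most 0.13 on the log2 scale. TMM factors computed without the 5 genes gave log2 differences from -0.31 (Csn1s2a) to -0.22 (Csn3), close to those with them. Bulk RNA cannot tell fewer alveolar cells from less casein RNA per cell.

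**Figure D2:**
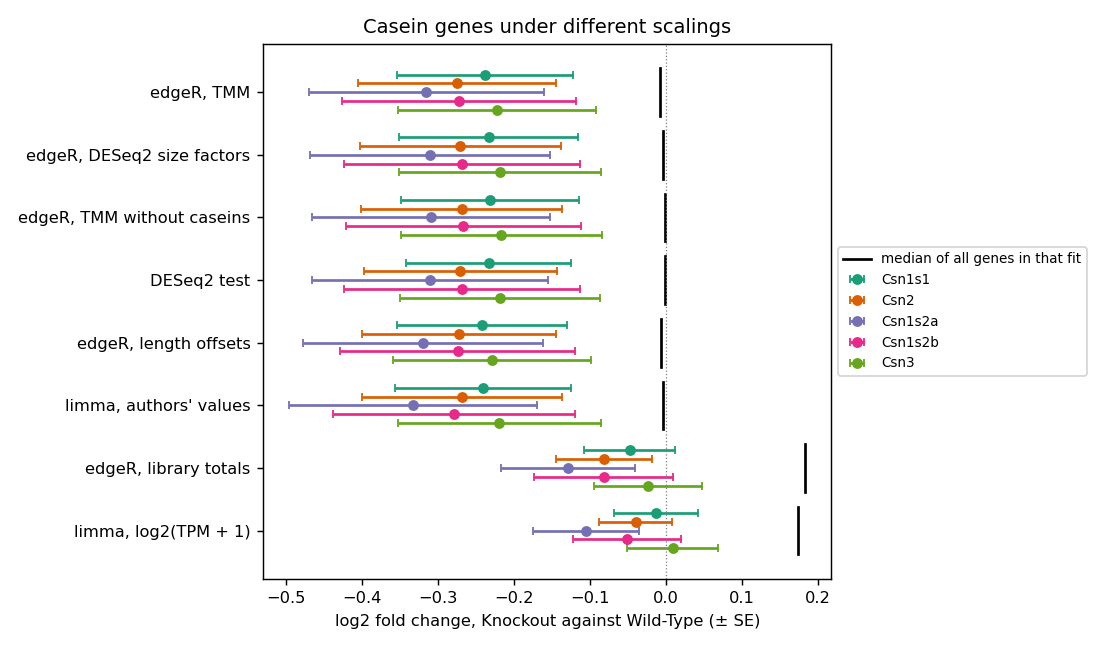
Log2 difference between Knockout and Wild-Type (x axis; points, with bars of 1 SE) of each casein gene under 8 ways of scaling and testing (y axis), with the median over all genes of that fit as a black line. Under library totals and TPM the median gene lies near 0.18 and 0.17 and the caseins lie near 0; under the others the median gene lies near 0 and the caseins between -0.33 and -0.22.

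Knockout 1 was the lowest library on the TMM scale for each casein gene. Of the marker lists, those of skeletal muscle and adipocytes had their highest sums of all 11 libraries in Knockout 1, and that of B cells its highest sum among the Knockout libraries, while luminal and myoepithelial markers were neither highest nor lowest there among the Knockout libraries. The summed level of 5 skeletal muscle markers was 1986 CPM in Knockout 1, with a lowest Knockout value of 2.10 CPM and Wild-Type values between 1.07 and 167 CPM, and Myh4 was at 0 in at least 1 library of each genotype. All 5 muscle markers had higher means in Knockout (median log2 difference 2.17, 0 called by edgeR, 0 at an unadjusted p under 0.05), but only 2 of 5 without Knockout 1 (median -0.08), and the median was 0.66 over the 4 tested on log2(TPM + 1). Mb (myoglobin) differed by 0.58 ± 0.30 on the log2 scale (SE; adjusted p = 0.457, edgeR), and by 0.87 without Wild-Type 1. Summed B cell markers (4 of 6 above the filter) were at 11.99 CPM in Knockout 1, the highest of the Knockout libraries, whose lowest was 0.771. The Wild-Type libraries lay between 1.86 and 60.97 CPM. The 4 B cell markers had lower means in Knockout, with a median log2 difference of -2.77 and 0 called (4 at an unadjusted p under 0.05, against 12.4% of all genes). Among them, Cd37 differed by -2.62 ± 0.87 (SE; adjusted p = 0.313, edgeR) and Cd79a by -2.26 ± 0.84 (SE; adjusted p = 0.341, edgeR), the latter by -1.13 on log2(TPM + 1). Without Knockout 1 the log2 differences (edgeR, TMM) were -0.18 for Csn1s1 and -0.21 for Csn2, with adjusted p of 0.606 and 0.596. For Csn1s2a, Csn1s2b and Csn3 they were -0.22, -0.19 and -0.17. The part of these tissues in the casein values was not tested.

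Most markers of adipocytes and luminal epithelium and all 5 of myoepithelium had higher means in Knockout, where the caseins had lower ones. The splits of these lists were the same with library totals and in TPM. The medians rose with those scalings, as the median of all genes did (0.18 and 0.17): to 0.55 and 0.57 for adipocytes, 0.49 and 0.55 for luminal epithelium and 0.41 and 0.45 for myoepithelium. Of 8 adipocyte markers, 7 had a higher and 1 a lower mean, with a median log2 difference of 0.35. The lower one was Lep, at -0.81 ± 0.50 (SE; adjusted p = 0.526, edgeR). By edgeR 0 were called, and 5 (62.5%) had an unadjusted p under 0.05, against 12.4% of all genes. DESeq2, which called 0.957% of the genes it tested, called 2, Cfd and Fabp4. The summed level of the 8 markers was 1003 to 1637 CPM over the Knockout libraries against 621 to 957 CPM over the Wild-Type libraries, without overlap. Of all single genes tested, 1.32% had ranges that did not overlap. Cfd (adipsin), both the most abundant of them and the one with the smallest p, averaged 905 ± 201 CPM (SD) for Knockout against 527 ± 120 CPM for Wild-Type, with a log2 difference of 0.78 ± 0.18 (SE; adjusted p = 0.218 by edgeR, 0.00521 by DESeq2).

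Of 8 luminal and alveolar epithelial markers other than milk proteins, 7 had a higher and 1 a lower mean in Knockout, with a median log2 difference of 0.31. Of these 8, 0 were called and 2 (25%) had an unadjusted p under 0.05, against 12.4% of all genes. The lower one was Elf5, which is also on the list of casein transcription, with a log2 difference of -0.25 ± 0.27 (SE; adjusted p = 0.746, edgeR). The median was 0.50 without Wild-Type 4, the library with the highest sum of these markers among the Wild-Type ones, and 0.21 without Knockout 2. Their sum was 653 to 1034 CPM over the Knockout libraries against 521 to 955 CPM over the Wild-Type libraries. The keratin Krt8, the most abundant, averaged 224 ± 54.1 CPM (SD) for Knockout against 160 ± 54.9 CPM for Wild-Type, with adjusted p = 0.396 (edgeR). Its log2 difference was 0.48, and 0.72 without Wild-Type 4. Cdh1 (E-cadherin), with the smallest p, had a log2 difference of 0.41 ± 0.17 (SE; adjusted p = 0.360, edgeR). All 5 myoepithelial markers had higher means, with a median of 0.21 and 0 called. That median was 0.12 without Wild-Type 2 and 0.38 without Wild-Type 5. Among them were Krt5, at 0.50 ± 0.20 (SE; adjusted p = 0.366, edgeR), and Myh11, at 0.16 ± 0.14 (SE; adjusted p = 0.655, edgeR), which became 0.08 without Wild-Type 2, 0.29 without Wild-Type 5, 0.36 with library totals and 0.38 in TPM. The casein values and these marker sums were read from the same scaled libraries, and the part of cell makeup in the casein differences was not tested.

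The proportions among the caseins were similar in the genotypes, and their differences were not tested. By reads, Csn1s1 and Csn2 together made up 71.4% ± 1.40 (SD) of the casein reads for Knockout against 70.8% ± 0.970 for Wild-Type. Csn1s1 made up 38.9% ± 1.42 of the casein reads in Knockout and 38.2% ± 1.56 in Wild-Type. For Csn2 these shares were 32.5% ± 0.768 and 32.6% ± 0.619, and for Csn1s2a 16.51% ± 1.19 and 17.2% ± 0.605. Csn1s2b made up 6.33% ± 0.625 and 6.36% ± 0.334, and Csn3 5.79% ± 0.244 and 5.59% ± 0.345. Each difference of the means was smaller than the SD of single libraries over all 11, and the ranges of the genotypes overlapped for all 5. That of Csn1s2a (-0.690 percentage points) was larger than its Wild-Type SD, and 4 Knockout libraries were below every Wild-Type library. The differences were small enough to move with 1 library: that of Csn1s1 ran from 0.407 (without Wild-Type 5) to 1.36 percentage points (without Wild-Type 4), that of Csn2 from -0.430 (without Wild-Type 4) to -0.00526 (without Knockout 5) and that of Csn3 from 0.0860 (without Wild-Type 4) to 0.320 (without Wild-Type 1). The difference of Csn1s2a was -0.344 without Knockout 1, and larger than with all libraries without Knockout 3, whose share of 18.1% was the highest of all. That of Csn1s2b changed sign without Knockout 1, 3 or 5 or Wild-Type 2. The share of Csn2 varied least, with a coefficient of variation over 11 libraries of 2.07%, and that of Csn1s2b most, with 7.73%. Per effective length the make-up was another: of the summed casein TPM, Csn2 held 28.7% ± 0.693 (SD over 11 libraries), Csn1s2a 24.2% ± 1.27, Csn1s1 22.3% ± 1.11, Csn1s2b 16.3% ± 1.03 and Csn3 8.47% ± 0.412. There too each difference between the genotypes was smaller than the SD over all 11 libraries, while that of Csn1s2a (-0.950) was larger than its Wild-Type SD (0.573).

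**Figure D3:**
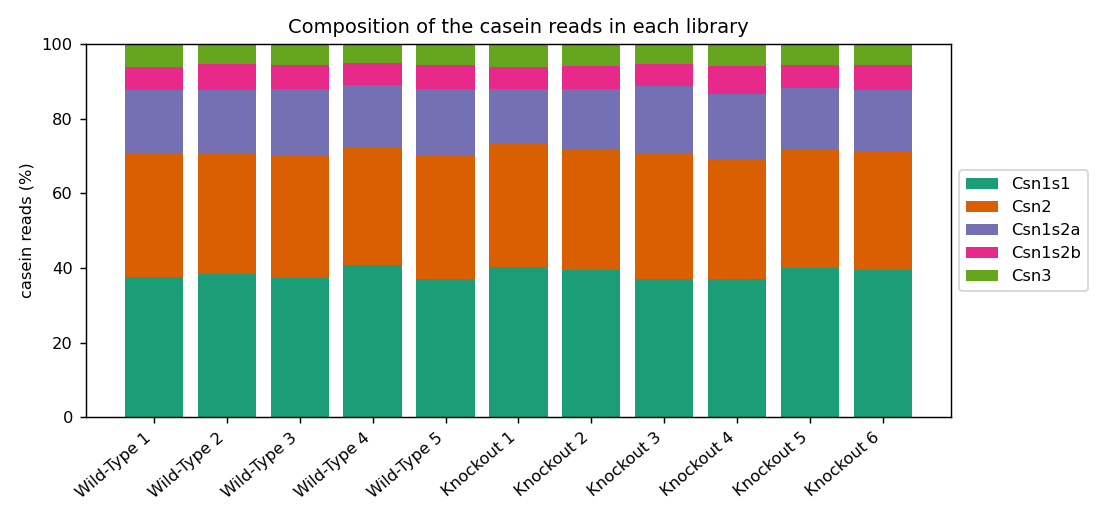
Share (%) of each casein gene in the summed casein reads of each of the 11 libraries, stacked to 100. Csn1s1 lies between 37.1% and 40.9%, Csn2 between 31.6% and 33.7%, Csn1s2a between 14.8% and 18.1%, Csn1s2b between 5.72% and 7.39% and Csn3 between 5.12% and 6.16%.

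The most used transcript of each casein gene with several kept nearly the same share of the gene's reads in all libraries, with coefficients of variation of 0.103% to 0.274%; these shares were 92.0% to 95.4% in Csn1s1, Csn1s2a and Csn1s2b. The less used transcripts with at least 1% of the reads varied by 0.403% (Csn2-201) to 4.09% (Csn1s2b-204), and those below 1% by 5.85% or more. Salmon divides reads that fit several transcripts by a statistical estimate, so these shares rest on the few reads that cover the differing bases. In Csn2, the transcript Csn2-206 with the 3 bases CAG at the start of exon 6 held 60.8%, 61.1%, 61.1%, 61.1% and 61.2% of the gene's reads in Wild-Type 1 to 5. In Knockout its lowest share was 60.7%, its median 60.9% and its highest 61.1%. Csn2-201, which lacks these bases, held 38.8% ± 0.156 (SD over 11 libraries). The 3-base difference keeps the reading frame, as do the stretches printed above for the other genes.

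In Csn1s1 the transcript Csn1s1-205, which lacks the 57 bases printed above, held 4.49%, 4.62%, 4.40%, 4.50% and 4.59% of the reads in Wild-Type 1 to 5. Its Knockout shares had a lowest value of 4.42%, a median of 4.61% and a highest of 4.83%, in Knockout 1. Csn1s1-201, with these bases, held 95.4% ± 0.126 (SD over 11 libraries). The Csn1s1 reads assigned to the shorter form numbered between 213726 and 328618 per library.

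In Csn1s2a, the transcript Csn1s2a-201 held 94.2% ± 0.0967 (SD over 11 libraries) and Csn1s2a-203, which lacks the 3 bases AAG at the start of exon 5, held 4.57% ± 0.0528. The lowest and highest shares of Csn1s2a-203 were 4.46% and 4.63%, both in Knockout libraries. In Csn1s2b, Csn1s2b-201 held 92.0% ± 0.252, Csn1s2b-204, which lacks the 33-base exon, 6.19% ± 0.253, and Csn1s2b-203, which lacks 15 bases, 1.81% ± 0.0561. The share of Csn1s2b-204 was 5.87% to 6.31% over the Wild-Type libraries and 5.93% to 6.55% over the Knockout libraries, overlapping. For Csn3 the tables list 1 transcript, and 2 other annotated coding transcripts have the same coding sequence, so usage could not be measured there.

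**Figure D4:**
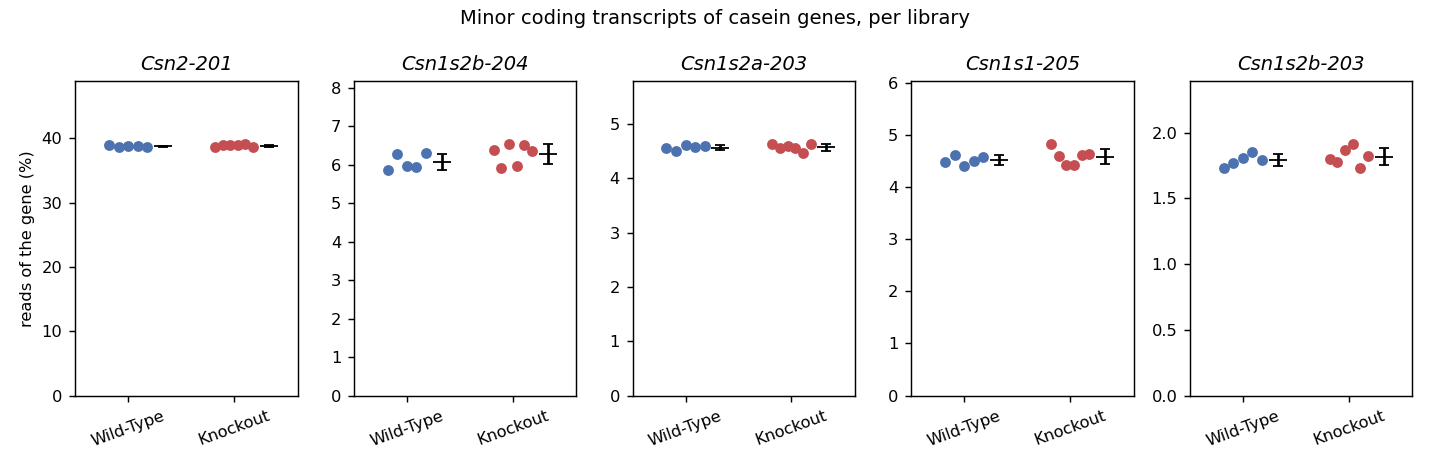
Share (%, axis from 0) of a gene's reads in its less used coding transcripts, 1 panel per transcript and 1 point per library, blue for Wild-Type and red for Knockout, with the mean and SD of each group. Csn2-201 lies near 39%, Csn1s2b-204 near 6%, Csn1s1-205 and Csn1s2a-203 near 4.6% and Csn1s2b-203 near 1.8%, and the genotypes overlap in each.

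No difference in casein transcript usage between genotypes was detected. Of the 4 casein genes with more than 1 transcript tested, 0 were called by edgeR's test of differential usage (diffSpliceDGE, Benjamini-Hochberg), which called 4 of 3898 genes, 0.103%. The gene-level adjusted p was 1.00 for each, and the unadjusted p was 0.247 for Csn1s1, 0.964 for Csn1s2b, 0.942 for Csn1s2a and 0.996 for Csn2, so 0 were under 0.05. A limma fit of the log2 ratio between a transcript and the other transcripts of its gene, added after the shares had been seen, uses the small spread of these shares directly and called 0 casein transcripts. In it the ratio differed by 0.01 ± 0.01 on the log2 scale for Csn2-201 (SE; adjusted p = 0.939), by 0.02 ± 0.03 for Csn1s1-205 (adjusted p = 0.921) and by 0.05 ± 0.05 for Csn1s2b-204 (adjusted p = 0.881). For Csn1s2a-203 it differed by 0.00111 ± 0.0299 (adjusted p = 0.994, limma). That fit called 2 of 9938 transcripts, 0.0201%.

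Most neighbours of the caseins on chromosome 5 had no or few reads. Of 21 other protein-coding genes inside the cluster or within 500 kb of it, 3 passed the filter. Between Csn1s2b and Csn3 lie Prr27, with 0 to 5 reads per library, and Odam, an enamel-associated protein gene, with 47 to 181 reads, where the caseins had between 680317 and 7473070. Odam had a mean of 2.30 TPM, and its log2 difference between genotypes was 0.42 ± 0.18 (SE; adjusted p = 0.379, edgeR), and 0.63 with library totals. Sult1d1, a sulfotransferase gene upstream of Csn1s1, was at 2.71 TPM, with a log2 difference of 0.28 ± 0.19 (SE; adjusted p = 0.557, edgeR), and of 0.17 without Knockout 4 and 0.45 with library totals. Prol1, downstream of Csn3, was the highest neighbour, at 654 TPM and with 5146 to 73914 reads per library. Its log2 difference was 1.01 ± 0.54 (SE; adjusted p = 0.481, edgeR), in the direction opposite to the caseins.

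**Figure D5:**
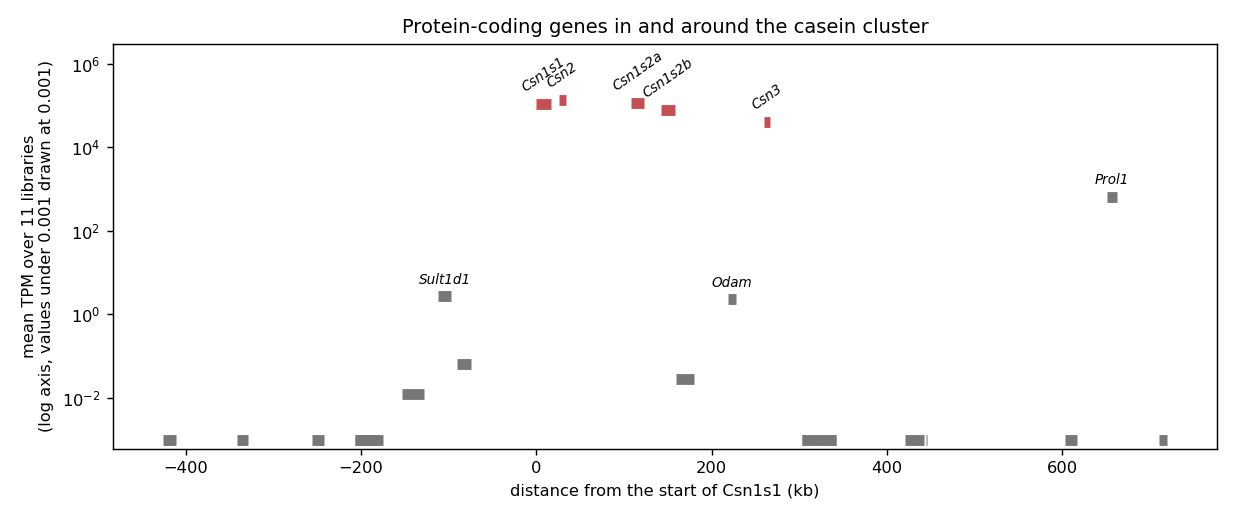
Mean TPM over the 11 libraries (log axis, values under 0.001 drawn at 0.001) of each protein-coding gene against its distance in kb from the start of Csn1s1. The 5 casein genes (red) lie between 41042 and 139105 TPM, while the other genes (grey) lie at 654 TPM (Prol1) or below, including those between the caseins.

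The genes most like the caseins were sought by the correlation, over the 11 libraries, of their log2 CPM with the mean log2 CPM of the members. Of 12711 other genes, the 5 highest were Wap (Pearson r = 0.973, Spearman rho = 0.973), Btg3 (0.967 and 0.964), Cytip (0.952 and 0.909), Stim2 (0.951 and 0.873) and Aup1 (0.942 and 0.927). These values describe a choice of the highest among many and share the scaling factors of the libraries, so no p is given. Wap, the whey protein gene on another chromosome, ran from 52256 CPM in Knockout 1 to 106227 CPM in Wild-Type 3, and each of the 5 caseins had its lowest and highest CPM in these same libraries. Its log2 difference was -0.32 ± 0.15 (SE; adjusted p = 0.411, edgeR), and -0.13 with library totals and -0.10 in TPM. Stim2, a calcium sensor of the endoplasmic reticulum, ran from 25.6 to 51.3 CPM and Btg3, an antiproliferative gene, from 58.6 to 142 CPM.

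The genes that act on casein transcription were split in direction on the TMM scale. Of 11 genes of prolactin signalling and casein transcription, 7 had a higher and 4 a lower mean in Knockout, with a median log2 difference of 0.10. By edgeR 0 were called (2, or 18.2%, at an unadjusted p under 0.05, against 12.4% of all genes). With 1 library left out the median ran from 0.03 (without Wild-Type 2) to 0.13 (without Knockout 1). With library totals and in TPM the split was 9 higher and 2 lower, with medians of 0.27 and 0.26 beside the 0.18 and 0.17 of all genes. Cish, a feedback inhibitor that Stat5 induces, had the smallest p of the list. Its Knockout libraries ran from 3.58 to 7.97 CPM and its Wild-Type libraries from 7.63 to 17.8 CPM, overlapping. The log2 difference was -0.999 ± 0.24 (SE; adjusted p = 0.218 by edgeR, 0.00923 by DESeq2), and -0.51 on log2(TPM + 1). Stat5a had a log2 difference of the sign opposite to Cish, 0.43 ± 0.19 (SE; adjusted p = 0.379, edgeR), while Stat5b differed by 0.01 ± 0.15 (SE; adjusted p = 0.991, edgeR). Socs2, also on the list, had a log2 difference of 0.76 ± 0.47 (SE; adjusted p = 0.535, edgeR). Ybx1, a nucleic-acid binding protein and the most abundant of the list, averaged 150 ± 10.5 CPM (SD) for Knockout against 160 ± 6.22 CPM for Wild-Type, with a log2 difference of -0.09 ± 0.07 (SE; adjusted p = 0.597), which turned positive with library totals (0.10) and TPM (0.13).

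Of 6 genes that phosphorylate caseins or supply calcium and phosphate to milk, 5 had a lower and 1 a higher mean in Knockout, with a median log2 difference of -0.29 and 0 called (0 at an unadjusted p under 0.05). Without Wild-Type 3 the median was -0.15. The split moved to 4 lower and 2 higher with library totals and to 3 and 3 in TPM, with medians of -0.09 and -0.04 beside the 0.18 and 0.17 of all genes. Fam20a, the pseudokinase partner of the casein kinase Fam20c, averaged 129 ± 24.9 CPM (SD) for Knockout against 164 ± 33.2 CPM for Wild-Type, with a log2 difference of -0.35 ± 0.16 (SE; adjusted p = 0.404, edgeR), and of -0.15 with library totals and -0.11 in TPM. Fam20c itself had a log2 difference of 0.04 ± 0.28 (SE; adjusted p = 0.970, edgeR). Slc34a2, a sodium-dependent phosphate transporter and the most abundant of the list, had a log2 difference of -0.31 ± 0.18 (SE; adjusted p = 0.511, edgeR), and of -0.17 without Wild-Type 3, -0.11 with library totals and -0.08 in TPM.

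Of 11 other milk protein genes, 9 had a lower and 2 a higher mean in Knockout, with a median log2 difference of -0.14. By edgeR 0 were called (2, or 18.2%, at an unadjusted p under 0.05, against 12.4% of all genes). With library totals, as in TPM, the split turned to 4 lower and 7 higher, with medians of 0.05 and 0.09 beside the 0.18 and 0.17 of all genes. DESeq2, which called 0.957% of the genes it tested, called 1, Spp1 (osteopontin). Spp1 ran from 1.93 to 78.5 CPM in the Knockout libraries and from 0.752 to 2.39 CPM in the Wild-Type libraries. Lao1, an L-amino acid oxidase of mouse milk, had the smallest p, with Knockout libraries from 3681 to 6091 CPM and Wild-Type libraries from 5155 to 8247 CPM. Its log2 difference was -0.55 ± 0.15 (SE; adjusted p = 0.263, edgeR), and -0.36 with library totals and -0.33 in TPM. Trf, the most abundant, averaged 81281 ± 9124 CPM (SD) for Knockout against 98093 ± 15309 CPM for Wild-Type, with a log2 difference of -0.27 ± 0.13 (SE; adjusted p = 0.407, edgeR), which became -0.07 with library totals and -0.03 in TPM. Lalba, which encodes the alpha-lactalbumin needed for lactose synthesis, differed by -0.14 ± 0.08 (SE; adjusted p = 0.505, edgeR).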

How the data were processed

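RNA-seq of 11 mouse mammary glands was measured, 1 library per sample, grouped by sample title. The authors' deposited tables give, per the file headers, an estimated read count, a TPM value and an effective length (another value, in bases) for each of 58204 transcripts. Salmon 1.3.0, DESeq2 1.28.1 and GRCm38.p6 are named in the submitters' processing notes; the index and how strand was counted are not given in the sources used here. The authors also deposited gene values that they normalized between libraries, used here as a signal in 1 alternative test.

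Deposited estimated counts were summed per gene by GENCODE M21 identifiers, which matched 57452 transcripts; the 752 unmatched ones held 0.195% to 0.265% of a library's reads and were left out. Sums were rounded, filtered with filterByExpr (at most 0.0698% of reads removed) and tested with edgeR 4.0.16 (TMM, robust quasi-likelihood F test, Benjamini-Hochberg, threshold 0.05) in R 4.3.3. SEs are the log2 difference divided by the square root of F. Transcript usage was tested with diffSpliceDGE. Alternatives used DESeq2 1.42.0 and limma 3.58.1, with 1 added to TPM and authors' values before logs. The edgeR gene and usage tests and the limma fit of transcript ratios were checked on simulated data.

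The members and gene lists were chosen with earlier results of these data known. Beside the members, the text names transcripts with at least 1% of a member's reads, the 5 genes most like the members, the smallest p and the most abundant gene of each list, neighbours that passed the filter, and Tsc1. Prr27, Stat5a, Stat5b, Socs2, Elf5, Lep, Fam20c, Fabp4, Spp1 and Lalba were named after their values were seen. The labels name no batch, litter or animal, so p-values measure only the spread between these samples.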

Additional observations from a re-analysis of the deposited data

Results flagged for a closer look

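In 108 groups of 5 or 6 values, 8 had a highest or lowest library set apart from the others by a gap that is large for the group's range (Dixon's test); chance flags about 1 in 20 such groups, here 5.4. For the caseins, Csn1s1 held 20.4% of the reads in Knockout 5 against 17.4% to 18.4% in the other Knockout libraries. Csn1s2a was at 131037 TPM in Wild-Type 3 against 118850 to 121375 TPM in the other Wild-Type libraries. Csn2-206 (ENSMUST00000197422.4) held 60.8% of its gene's reads in Wild-Type 1 against 61.1% to 61.2%. Csn1s2a-201 (ENSMUST00000076379.7) held 94.0% in Wild-Type 3 against 94.2% in the others. Among markers, Knockout 1 stood apart in Myh4 of skeletal muscle (1148 CPM against 0 to 10.6), and in Cd37 (2.80 CPM against 0.367 to 1.08) and Cd79a (4.20 CPM against 0.330 to 1.54) of B cells. Krt8 was at 258 CPM in Wild-Type 4 against 128 to 148 CPM in the other Wild-Type libraries.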

How the results depend on the processing

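None of the casein genes was called under any of the alternatives run, library by library omissions included. The log2 differences with 1 library left out ran from -0.28 to -0.18 for Csn1s1, -0.34 to -0.21 for Csn2, -0.38 to -0.22 for Csn1s2a, -0.36 to -0.19 for Csn1s2b and -0.31 to -0.16 for Csn3. The casein share of reads differed by -3.13 to -1.62 percentage points. On log2(TPM + 1) Csn3 turned to 0.00899, and Aup1 (0.0495), Tsc1 (0.0432) and Ybx1 (0.13) turned positive as well, as they did with library totals (0.0190, 0.10 and 0.10); the median of all genes moved by about as much. Per listed length the log2 ratio of Csn1s2a to Csn1s1 turned to -0.44. Myh4 turned to -1.03 on the authors' values and to between -2.71 and 3.43 with 1 library left out. In limma's voom test of usage, ENSMUST00000094641.8 turned to 0.0913 and ENSMUST00000196749.4 to 0.0388 on the log2 scale, the latter ranging from -0.00624 to 0.00652 with 1 library left out.

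The count over all genes moved most: 7 genes were called by edgeR, 135 by DESeq2, 2 by limma on log2(TPM + 1), and 0 to 28 with 1 library left out (2 without Knockout 1, 28 without Knockout 2, 0 without Knockout 3 or Knockout 6, 2 without Wild-Type 3, 14 without Wild-Type 4, 13 without Wild-Type 1 or Wild-Type 5). Usage calls numbered 4, 0 with voom, and 1 to 15 with 1 library left out (15 without Wild-Type 5).

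With the replicate number as a block (replicates 1 to 5 of each genotype), 0 genes were called, the casein differences were between -0.31 and -0.20, and Myh4 turned to -0.41. Samples that share a number did not as a rule deviate together (correlations from -0.22 to 0.19, 1 of 5 Knockout samples correlating best with its own number). The labels do not say whether equal numbers pair the samples, and these correlations cannot settle it. The cause of the changes between settings was not tested. Each casein gene had at least 680317 reads in every library, and what limits the precision of its difference was not tested.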
